A study of Mus musculus with 6 samples.

Results

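Lysosomal genes were examined in keratocytes, the stromal cells that build and maintain the collagen matrix of the cornea, sorted from mice with and without tamoxifen-induced Ptch1 ablation. The set held 49 of the 17606 genes in the expression table: 10 cysteine proteases, 3 aspartic and serine proteases, 7 enzymes of glycosaminoglycan degradation, 7 glycan and glycogen hydrolases, 7 genes of sphingolipid and lipid handling, 8 lysosomal membrane proteins, 4 parts or partners of the proton pump and 3 transcription factors of the MiT family. The members were chosen as the known lysosomal genes around Ctsl and Gpnmb, and those 2 genes were picked because they were lower in the Ptch1-ablated libraries of this same comparison. All 49 members were in the table and all 49 passed the filter on low counts, which 13888 genes passed.

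The ablated group held 3 libraries from Prrx1-CreERT;Ptch1 mice and the control group held 3 libraries from mice labelled only as control, with no genotype given for them. Mice of both groups were 10 weeks old, received 3 doses of tamoxifen, and their keratocytes were sorted from the cornea by FACS, with a treatment period of 1 month in the labels. According to the study's methods the allele was a floxed Ptch1 and the Cre was knocked in at Prrx1, a gene of stromal mesenchyme. The study states that this Cre also recombines in corneal endothelial cells and in further mesenchymal lineages of the eye. The number of mice in each library was not given. Ptch1 is the receptor that holds the Hedgehog pathway off, so its loss turns the pathway on, and the comparison asks which transcripts of the keratocyte differ when the pathway is active.

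The libraries held between 20258414 and 24788039 expected counts. Levels are given in CPM, the counts scaled to library size with edgeR's TMM factors, where libraries are compared, and in TPM, a share of transcripts that also accounts for transcript length, where genes are compared. The Hedgehog targets Gli1 and Hhip had 1 to 36 and 12 to 31 expected counts in the control libraries against 3022 to 3098 and 23979 to 26893 in the libraries labelled Ptch1-ablated. Ptch1 itself, which is also a target of the pathway, had 104 to 369 counts in control and 4348 to 6230 in ablated libraries; a total over the whole gene does not show whether the floxed exons were deleted. Of the 10 keratocyte markers, Ptgds had 0 to 39 counts per library and was not tested. The other 9 were abundant in every library, but 7 of them were lower after ablation. The summed level of all 10 was 135301 to 159943 TPM in control and 100118 to 113096 TPM in ablated libraries. Leukocyte markers summed to 6876 to 7819 TPM in control and 9755 to 10209 TPM in ablated libraries, with 2 of 17 higher and none lower by the edgeR test at an adjusted p of 0.05. The rise of that sum lay mainly in Cd74 (mean 3079 TPM in control, 5201 in ablated libraries), H2-Ab1 (1038 and 1463) and H2-Aa (461 and 683). By log2 fold change 10 of the 17 lay above 0 and 7 below 0. Markers of vascular endothelium (271 to 357 against 485 to 511 TPM, 5 of 7 higher), mural cells (379 to 450.4 against 636 to 726 TPM, 3 of 6 higher) and Schwann cells (131 to 149.6 against 195 to 214 TPM, 1 of 6 higher) were also higher, while those of corneal epithelium summed to 50.9 to 89.9 TPM in control and 4.03 to 8.77 TPM in ablated libraries, with 3 of the 6 tested lower and 1 higher. The part of these differences in the lysosomal values was not tested, and in bulk libraries fewer cells of a type and less RNA per cell cannot be told apart.

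Lysosomes are acidic organelles in which proteases, glycosidases, sulfatases and lipases break down material delivered by endocytosis and autophagy. A vacuolar ATPase pumps protons into them, heavily glycosylated membrane proteins such as LAMP1 and LAMP2 line them, and transport proteins return the products to the cytosol. Many of the genes carry an E-box of the sequence CACGTG, within the longer CLEAR element, which the MiT factors TFEB, TFE3 and MITF bind. Keratocytes of the corneal stroma turn over collagen and the keratan, dermatan and heparan sulfate chains of proteoglycans, and inherited defects of several of these enzymes cloud the cornea. Ctsl encodes cathepsin L, a broad cysteine protease of the lysosome. Gpnmb encodes a type I transmembrane glycoprotein of lysosomes and melanosomes that is a known target of MITF.

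RefSeq promoter windows, from 250 bases before to 50 bases after a gene's start, were matched for 42 of the 49 members on the mouse build GRCm38.p6. The other 7, Asah1, Atp6v1h, Ctsb, Ctsh, Galns, Laptm4b and Npc1, had no window. The stretches below were chosen because they hold MiT-type motifs of members that were picked or passed the test. Cln3 was chosen as the one member of the 42 with the CLEAR palindrome. Gpnmb was chosen because it had the lowest log2 fold change and no MiT-type motif. Each is read 5′ to 3′ on the strand of the gene, with matches to CACGTG, to its extension TCACGTG, to the CLEAR palindrome built around it or to the M-box variant TCATGTG, on either strand, in capitals. A match is a description of the letters and not a bound site. Not every match is shown. Ctsf, with CACGTG at -79 from its start, and Ppt1, with TCATGTG at 13, also passed the test and were left out. Further E-boxes of Ctsd at -98, Mcoln1 at -45 and Cln3 at -149 were left out as well.
Ctsl, chr13:64370741-64370770, minus strand: gcggcgttagaagcCACGTGctgatctaaa
Lamp1, chr8:13159091-13159160, plus strand: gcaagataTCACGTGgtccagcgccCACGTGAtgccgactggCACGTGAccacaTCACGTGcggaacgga
Ctsd, chr7:142388046-142388077, minus strand: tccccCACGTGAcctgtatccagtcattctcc
Arsa, chr15:89477425-89477461, minus strand: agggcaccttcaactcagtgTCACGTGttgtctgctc
Mcoln1, chr8:3500427-3500473, plus strand: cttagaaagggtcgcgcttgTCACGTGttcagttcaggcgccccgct
Naglu, chr11:101070012-101070034, plus strand: ccttcaggTCACGTGgcccgagg
Cln3, chr7:126583340-126583369, minus strand: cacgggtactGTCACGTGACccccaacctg
Scarb2, chr5:92505663-92505709, minus strand: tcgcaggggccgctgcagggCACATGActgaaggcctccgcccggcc
Gpnmb, chr6:49036398-49036517, plus strand: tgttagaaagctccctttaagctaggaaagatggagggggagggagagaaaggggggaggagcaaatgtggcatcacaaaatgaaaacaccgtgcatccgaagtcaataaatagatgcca

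These stretches lie upstream of the RefSeq start of each gene. The nearest start of a protein-coding transcript in GENCODE vM21, on the same build, differed for some genes. It lay 214 bases downstream of the RefSeq start for Ctsl and 97 bases downstream for Gpnmb. For Ctsl and Gpnmb the window may thus miss the bases next to the start in use. For Naglu the GENCODE start lay 82 bases upstream of the RefSeq start. By GENCODE the Naglu stretch, from -82 to -60 with TCACGTG at -74, therefore lies at or after the start. The 70 bases before the Lamp1 start hold 4 E-boxes, the most among the 42 members with a window, and each of them is also a TCACGTG on one strand. The E-box of Ctsl lies 236 bases before its start and lacks the flanking T of the longer motif. The palindrome was found in Cln3 and in no other of the 42 windows, and Scarb2 carries the M-box variant, read on the other strand as CACATGA, with no E-box in its window.

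In the whole set, 16 of 42 windows held CACGTG (38.1%), against 8.09% of the windows of 27025 genes. The longer TCACGTG, every match of which contains an E-box, was in 14 of 42 windows (33.3%) against 4.29% of all genes, and the CLEAR palindrome, the letters in capitals in Cln3, which contains both, was in 1 window (2.38%) against 0.37%. TCATGTG, which does not overlap the E-box motifs in its letters, was in 6 windows (14.3%) against 4.31%. The Gli-type motif GACCACCCA was in 0 of the 42 windows and in 0.289% of all genes, which says only that these letters are not in these windows. Since lysosomal genes are known for this E-box, the shares describe the members and do not depend on the comparison. The median log2 fold change was -0.39 for members with TCACGTG and -0.33 for members without it. For the E-box it was -0.43 with and -0.30 without, and for TCATGTG -0.19 with and -0.39 without. These medians are descriptions with no test.

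**Figure D1:**
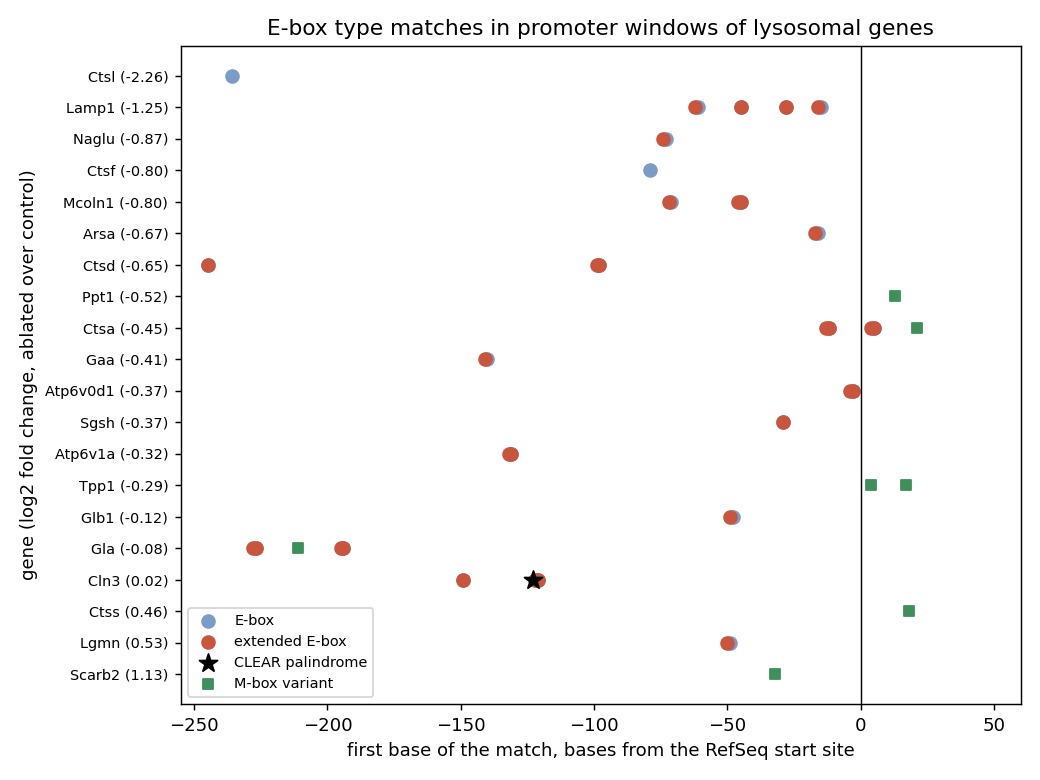
Positions of E-box type motifs in the promoter windows of the 20 members that hold one. The x axis gives the first base of each match in bases from the RefSeq start site (vertical line), the rows are genes in order of log2 fold change (given in brackets), and colours and shapes stand for the 4 motifs. Lamp1 has 4 E-boxes close to its start, whereas the single E-box of Ctsl lies at -236.

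Ctsl and Gpnmb were the members furthest below 0. Since they were picked from this contrast, their values are a description with no test. Ctsl (Entrez Gene 13039) had 3254, 3259 and 3470.5 CPM in the control libraries and 651, 653 and 786 CPM in the ablated libraries. The lowest control library was above the highest ablated library by a wide margin, and the means were 3328 ± 124 and 697 ± 77.3 CPM (SD, n = 3 each). The log2 fold change was -2.26 ± 0.11 (SE), which is 4.78-fold lower. On the length-corrected scale Ctsl had 4390.3, 4414 and 4868 TPM in control and 1013, 1084 and 1189.9 TPM in ablated libraries. Ctsl thus ranked between 21 and 24 among all genes by TPM in the control libraries and between 89 and 110 in the ablated libraries.

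Gpnmb (Entrez Gene 93695) had 890.4, 916 and 944 CPM in control libraries and 157, 131 and 156 CPM in ablated libraries. The values within each group lay close together, with means of 917 ± 27.1 and 148 ± 14.7 CPM (SD, n = 3 each), and the groups did not overlap. The log2 fold change was -2.63 ± 0.13 (SE), which is 6.21-fold lower. By TPM, Gpnmb ranked between 132 and 167 among all genes in control and between 1052 and 1322 in ablated libraries. Among the members it was the fifth most abundant by mean TPM in control and number 22 after ablation. Gpnmb is also expressed by melanocytes and macrophages. The 6 melanocyte markers summed to 1.28 to 5.59 TPM in control and 2.56 to 5.83 TPM in ablated libraries. Of the 17 leukocyte markers tested, 2 were higher and none lower at an adjusted p of 0.05 by edgeR. By log2 fold change 10 of them lay above 0 and 7 below 0. The part of melanocytes and macrophages in the Gpnmb values was not tested.

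The other 47 members were tested with edgeR's quasi-likelihood test, with Benjamini-Hochberg adjustment over all 13888 genes. At an adjusted p of 0.05, 12 were lower and 1 was higher in ablated keratocytes, and 34 passed in neither direction. Over all genes tested, 8.48% passed at that threshold, 3.80% lower and 4.68% higher. Among the 9167 genes with a mean count at least as high as that of the lowest member, 5.17% were lower and 5.91% higher. Adding the study's requirement of a fold of at least 2 left 2 lower members, Ids and Lamp1, and 1 higher, Scarb2, against 5.49% of all genes, 2.13% lower and 3.36% higher. As the members were listed with the results of this comparison known, nothing is read from these shares. The same holds for the counts and medians by role given below.

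The changes were mostly small. Of the 47 members 39 had a log2 fold change below 0 and 8 above 0, with a median of -0.37, beside a median of 0.0046 and 49.6% below 0 over all genes tested. The CPM values of the groups did not overlap for 29 of the 47 members, 26 of them lower and 3 higher, where 27.4% of all genes did so, 13.3% lower and 14.1% higher. In TPM the whole set of 49 summed to 16714, 17016 and 18010.5 in control libraries and to 11768, 11129 and 12008 in ablated libraries, which is 1.72 ± 0.0679% and 1.16 ± 0.0454% of all TPM (SD, n = 3 each). Most of that gap came from Ctsl and Gpnmb, since the other 47 summed to 11628, 11869 and 12374 TPM in control and 10610.2, 9925 and 10677 TPM in ablated libraries. Both sums separated the groups. Scaling mattered for the smaller changes: with library totals in place of TMM, or with limma on log2 TPM, the median of all genes tested moved to 0.17 (totals), 0.19 (pseudocount 1) or 0.22 (pseudocount 0.1), and the median of the 49 members relative to it was -0.42, -0.40 and -0.42, beside -0.41 on the TMM scale.

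**Figure D2:**
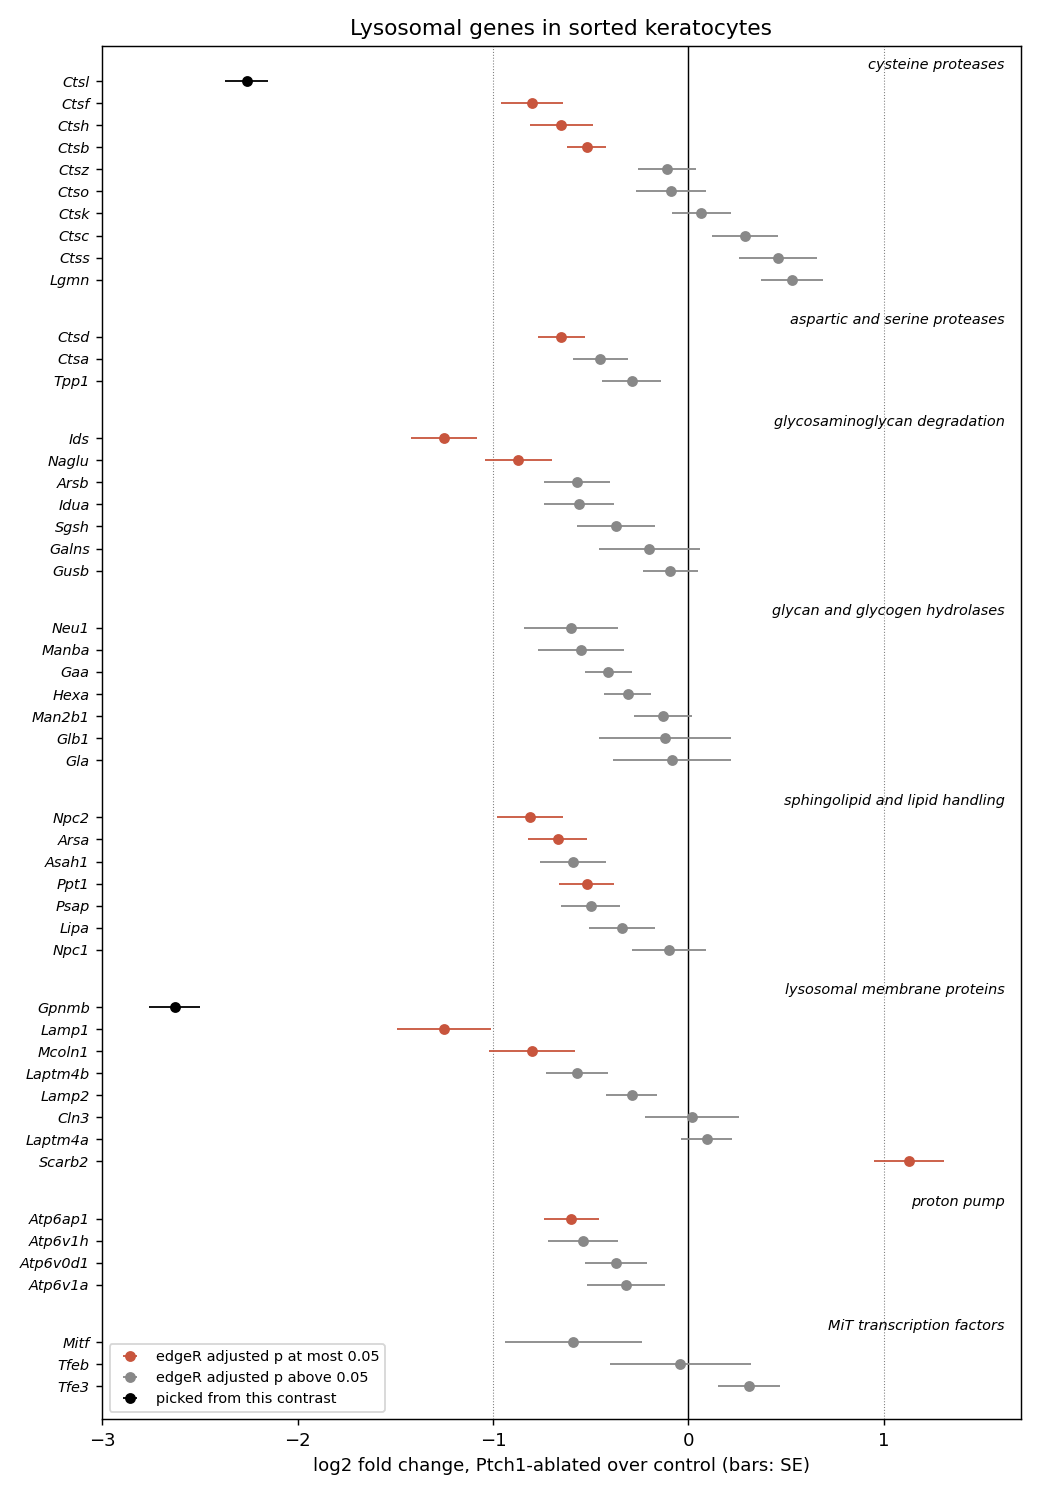
Log2 fold change of Ptch1-ablated over control for each of the 49 members, with standard errors as bars, grouped by role. Red points have an edgeR adjusted p of at most 0.05, grey points do not, and the 2 black points, Ctsl and Gpnmb, were picked from this contrast and carry no test; dotted lines mark a fold of 2. Most points lie left of 0, and Scarb2 is the red point on the right.

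Among the cysteine proteases beside Ctsl, 3 of 9 fell and none rose. Ctsb (Entrez Gene 13030), cathepsin B, had 2470.5, 2486 and 2573 CPM in control and 1809.7, 1591 and 1867 CPM in ablated libraries. The groups were separate, with means of 2509.8 ± 55.0 and 1756 ± 146 CPM (SD, n = 3 each) and a change of -0.52 ± 0.10 (SE) on the log2 scale with an adjusted p of 0.00748 by edgeR. In limma fits on log2 TPM the Ctsb change was -0.34 and the call was lost.

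Ctsf (Entrez Gene 56464), cathepsin F, had 328, 314 and 282 CPM in control and 192, 137 and 201 CPM in ablated libraries, a change of -0.80 ± 0.16 (SE) on the log2 scale with an adjusted p of 0.00880 by edgeR. Ctsh (Entrez Gene 13036), cathepsin H, an aminopeptidase, had 187, 172 and 139 CPM in control and 98.0, 99.7 and 119 CPM in ablated libraries, a change of -0.65 ± 0.16 (SE) on the log2 scale with an adjusted p of 0.0288 by edgeR. In both genes the lowest control library exceeded the highest ablated library, although the Ctsh call was lost in 8 of 15 alternative fits.

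The remaining cysteine proteases did not pass, and their log2 fold changes ran from -0.11 to 0.53. Ctsz, cathepsin Z, a carboxypeptidase, had 309 to 384 CPM in control and 266 to 347 CPM in ablated libraries (log2 change -0.11 ± 0.15, SE, adjusted p = 0.744 by edgeR), a direction that turned with library totals or log2 TPM. Ctsk, cathepsin K, the collagenolytic protease of osteoclasts, had 197 to 203 and 177 to 245 CPM (0.067 ± 0.15, SE, adjusted p = 0.868 by edgeR). Ctss, cathepsin S, a protease of antigen presentation, had 77.4 to 111 and 107 to 158 CPM (0.46 ± 0.20, SE, adjusted p = 0.201 by edgeR). Lgmn, legumain, the asparaginyl endopeptidase that processes cathepsins, is named after its values were seen: its 104, 99.1 and 128 CPM in control lay below the 174, 148 and 157 CPM of the ablated libraries, with a log2 fold change of 0.53 ± 0.16 that missed the threshold (SE, adjusted p = 0.0620 by edgeR). Lgmn passed as higher in 5 and Ctss in 2 of 15 alternative fits. In TPM the groups of Ctsc, Ctsk, Ctss and Lgmn did not overlap, with ablated libraries higher, while Ctso and Ctsz overlapped. Ctss and Lgmn are strongly expressed in macrophages. Of the 17 leukocyte markers tested, 10 had a log2 fold change above 0 and 7 below 0, with a median of 0.12 and a range from -0.83 to 0.79, and their part in the Ctss and Lgmn values was not tested.

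The make-up of the cathepsin pool differed between the groups. The 11 cathepsin genes summed to 10550.4, 10687 and 11285 TPM in control and 6429, 6025 and 6741 TPM in ablated libraries. Ctsl made up 41.6, 41.3 and 43.1% of that sum in control libraries and 15.8, 18.0 and 17.7% in ablated libraries. The Ctsb share went the other way, from 23.7 to 23.9% in control to 30.6 to 32.9% in ablated libraries, although its own level was lower. The ratio of Ctsl to Ctsb in TPM was 1.74, 1.75 and 1.81 in control and 0.495, 0.546 and 0.576 in ablated libraries, and such a ratio within a library does not depend on how libraries were scaled. Ctsl was the most abundant member in every control library, followed by Ctsb and Ctsd. In ablated libraries Ctsb came first in every library, while Ctsd (1154 ± 85.5 TPM) and Ctsl (1096 ± 88.9 TPM, SD, n = 3 each) were closer than their spread. The ratio of Ctsk to Ctsl in TPM lay between 0.0614 and 0.0676 in control and between 0.296 and 0.344 in ablated libraries. These ratios rest on Ctsl, which was picked from this contrast, and are given as a description.

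**Figure D3:**
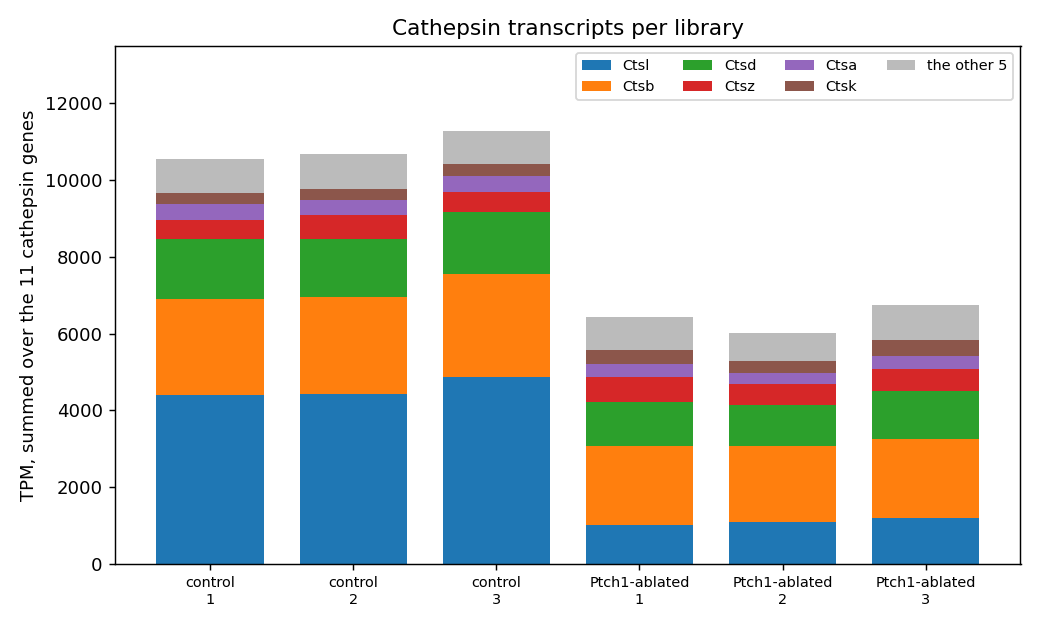
Summed TPM of the 11 cathepsin genes in each of the 6 libraries, with the contribution of each gene as a stacked segment (y axis from 0, TPM). The Ctsl segment at the base is 4390.3 to 4868 TPM in the control libraries and 1013 to 1189.9 TPM in the Ptch1-ablated libraries, while the other segments differ less.

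The other proteases were all below 0. Ctsd (Entrez Gene 13033), cathepsin D, the main aspartic protease of lysosomes, had 1331, 1308 and 1334 CPM in control and 849, 738 and 945 CPM in ablated libraries. The control libraries varied by a coefficient of variation of 1.10%, the lowest of any member, and the log2 fold change was -0.65 ± 0.12 (SE, adjusted p = 0.00442 by edgeR). Ctsa, the protective protein of neuraminidase and beta-galactosidase, had 396 to 407 CPM in control and 243 to 322 CPM in ablated libraries (-0.45 ± 0.14, SE, adjusted p = 0.0704 by edgeR). Tpp1, a tripeptidyl peptidase, had 158 to 196 and 138 to 153 CPM (-0.29 ± 0.15, SE, adjusted p = 0.289 by edgeR). Both showed separate groups in CPM without passing the test.

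Among the 7 enzymes that degrade glycosaminoglycans, 2 fell, none rose and the median log2 fold change was -0.56. Ids (Entrez Gene 15931), iduronate 2-sulfatase, which starts the breakdown of dermatan and heparan sulfate, had 93.6, 83.5 and 86.5 CPM in control and 37.3, 36.2 and 37.3 CPM in ablated libraries. The ablated libraries were nearly identical, and Ids was 2.38-fold lower (log2 change -1.25 ± 0.17, SE, adjusted p = 0.000505 by edgeR). Naglu (Entrez Gene 27419), N-acetylglucosaminidase of the heparan sulfate pathway, had 126, 143 and 122 CPM in control and 85.1, 62.1 and 66.3 CPM in ablated libraries, a change of -0.87 ± 0.17 (SE) on the log2 scale with an adjusted p of 0.00755 by edgeR. Neither call was lost in any of the 15 alternative fits.

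The other 5 members of that pathway lay between -0.57 and -0.092. Arsb, arylsulfatase B, which acts on dermatan sulfate, had 277, 347 and 437 CPM in control and 209.6, 244 and 261 CPM in ablated libraries (-0.57 ± 0.17, SE, adjusted p = 0.0644 by edgeR). Idua, alpha-L-iduronidase, the step after Ids, had 89.5 to 97.7 and 55.5 to 76.9 CPM (-0.56 ± 0.18, SE, adjusted p = 0.0850 by edgeR). Gusb, beta-glucuronidase, had 146 to 155 and 134 to 146 CPM (-0.092 ± 0.14, SE, adjusted p = 0.785 by edgeR). Arsb and Idua thus had separate groups in CPM but not in TPM, and the sign of Gusb turned with library totals or log2 TPM, as that of Galns did with log2 TPM.

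None of the 7 glycan and glycogen hydrolases passed the test. Their log2 fold changes ran from -0.60 to -0.084 with a median of -0.31, and those of Gla, Glb1 and Man2b1 turned above 0 with library totals or log2 TPM. Hexa, the alpha subunit of beta-hexosaminidase, had 393 to 420.2 CPM in control and 321 to 345 CPM in ablated libraries (-0.31 ± 0.12, SE, adjusted p = 0.157 by edgeR). Gaa, acid alpha-glucosidase, which degrades glycogen, had 607 to 651 and 443 to 537 CPM (-0.41 ± 0.12, SE, adjusted p = 0.0643 by edgeR). Man2b1, lysosomal alpha-mannosidase, had 240.1 to 349 and 255 to 273 CPM and overlapped (-0.13 ± 0.15, SE, adjusted p = 0.722 by edgeR). Glb1, beta-galactosidase of the keratan sulfate and ganglioside pathways, is named for its spread, seen after the values: it had 13.5, 34.7 and 41.5 CPM in control, the widest coefficient of variation of the members in that group (48.7%), and 29.1, 26.2 and 26.9 CPM in ablated libraries.

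Of the 7 genes of sphingolipid and lipid handling, 3 fell, and the median log2 fold change was -0.52. Npc2 (Entrez Gene 67963), the soluble cholesterol carrier of the lysosome, had 279.8, 263 and 236 CPM in control and 145, 120.1 and 179 CPM in ablated libraries, a change of -0.81 ± 0.17 (SE) on the log2 scale with an adjusted p of 0.00943 by edgeR. Arsa (Entrez Gene 11883), arylsulfatase A, which desulfates sulfatide, had 162, 136 and 159 CPM in control and 96.6, 87.0 and 104 CPM in ablated libraries, a change of -0.67 ± 0.15 (SE) on the log2 scale with an adjusted p of 0.0170 by edgeR. Ppt1 (Entrez Gene 19063), palmitoyl-protein thioesterase, had 369, 372 and 464 CPM in control and 289, 265 and 283 CPM in ablated libraries, a change of -0.52 ± 0.14 (SE) on the log2 scale with an adjusted p of 0.0323 by edgeR. The groups were separate for all 3 genes, but the Arsa call was lost in 7 and the Ppt1 call in 9 of 15 alternative fits, whereas that of Npc2 held in all of them.

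Npc1, the membrane partner of Npc2 in cholesterol export, had 53.5 to 70.3 CPM in control and 51.2 to 65.9 CPM in ablated libraries (-0.10 ± 0.19, SE, adjusted p = 0.838 by edgeR), with a sign that turned with library totals or log2 TPM; it was named for this comparison after its values were seen. A difference between the changes of Npc1 and Npc2 was not tested. Psap, the precursor of the saposins, had 296 to 347 and 193 to 261 CPM (-0.50 ± 0.15, SE, adjusted p = 0.0580 by edgeR). Asah1, acid ceramidase, had 194 to 265 and 133 to 171 CPM (-0.59 ± 0.17, SE, adjusted p = 0.0539 by edgeR). Lipa, the acid lipase, had 119.8 to 148 and 91.7 to 128 CPM (-0.34 ± 0.17, SE, adjusted p = 0.300 by edgeR). Psap and Asah1 came close to the threshold, with separate groups in CPM and overlapping groups in TPM.

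The membrane proteins moved in both directions: beside Gpnmb, 2 of 7 fell and 1 rose. Lamp1 (Entrez Gene 16783), a main glycoprotein of the lysosomal membrane, had 277, 197 and 147 CPM in control and 112, 72.0 and 76.3 CPM in ablated libraries. The control libraries spread widely around a mean of 207 ± 65.6 CPM (SD, n = 3) and the ablated mean was 86.9 ± 22.3 CPM (SD, n = 3), with every ablated library below every control library. Lamp1 was 2.38-fold lower (log2 change -1.25 ± 0.24, SE, adjusted p = 0.00634 by edgeR), and without control 1 the log2 fold change was -0.99. Lamp2, its relative, had 592, 571 and 650.1 CPM in control and 419, 505 and 561 CPM in ablated libraries (-0.29 ± 0.13, SE, adjusted p = 0.255 by edgeR), a sign that turned with log2 TPM. The ratio of Lamp1 to Lamp2 in TPM was 0.648, 0.480 and 0.317 in control and 0.338, 0.192 and 0.170 in ablated libraries, which overlap.

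Mcoln1 (Entrez Gene 94178), the TRPML1 calcium channel, had 70.8, 64.7 and 54.0 CPM in control and 39.2, 27.2 and 42.7 CPM in ablated libraries, a change of -0.80 ± 0.22 (SE) on the log2 scale with an adjusted p of 0.0456 by edgeR, and the call was lost in 10 of 15 alternative fits. Scarb2 (Entrez Gene 12492), LIMP-2, the receptor that carries glucocerebrosidase to the lysosome, rose. It had 42.1, 47.1 and 50.8 CPM in control and 106, 111 and 88.1 CPM in ablated libraries, 2.18-fold higher (log2 change 1.13 ± 0.18, SE, adjusted p = 0.00151 by edgeR). Scarb2 was the one member past the threshold in the upward direction, and the call held in all 15 alternative fits. Relative to Lamp2 in TPM it was 0.0439, 0.0509 and 0.0488 in control and 0.142, 0.132 and 0.0875 in ablated libraries. Laptm4a, a small membrane protein, had 396 to 445 and 400.2 to 510.3 CPM (0.094 ± 0.13, SE, adjusted p = 0.767 by edgeR), and Laptm4b had 114 to 132 and 74.4 to 96.1 CPM (-0.57 ± 0.16, SE, adjusted p = 0.0521 by edgeR). Cln3, the battenin membrane protein with the CLEAR palindrome, had 36.7 to 47.9 and 29.0 to 49.7 CPM (0.020 ± 0.24, SE, adjusted p = 0.981 by edgeR), with a sign that turned with upper quartile scaling.

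Of the 4 genes of the proton pump, 1 fell and none rose. Atp6ap1 (Entrez Gene 54411), an accessory protein needed to assemble the vacuolar ATPase, had 758, 716 and 701 CPM in control and 549.7, 391 and 496 CPM in ablated libraries. The groups were separate, with means of 725 ± 29.6 and 479 ± 81.0 CPM (SD, n = 3 each) and a change of -0.60 ± 0.14 (SE) on the log2 scale with an adjusted p of 0.0189 by edgeR, which failed to hold in 7 of 15 alternative fits. The subunits Atp6v0d1 (-0.37 ± 0.16, SE, adjusted p = 0.203 by edgeR), Atp6v1h (-0.54 ± 0.18, SE, adjusted p = 0.0875 by edgeR) and Atp6v1a (-0.32 ± 0.20, SE, adjusted p = 0.424 by edgeR) did not pass.

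None of the 3 MiT factors passed the test. Tfeb, a regulator of lysosome biogenesis, was scarce, with 8.26, 12.1 and 10.8 CPM in control and 10.2, 7.01 and 13.1 CPM in ablated libraries. The groups overlapped, and the log2 fold change of -0.042 ± 0.36 (SE, adjusted p = 0.973 by edgeR) turned above 0 with library totals or log2 TPM. Mitf, the factor of melanocytes and osteoclasts, had 14.4, 17.5 and 14.0 CPM in control and 8.95, 14.5 and 6.96 CPM in ablated libraries (-0.59 ± 0.35, SE, adjusted p = 0.390 by edgeR). Tfe3 was the most abundant of the 3 and had 80.7, 89.9 and 86.1 CPM in control and 109.6, 95.5 and 113 CPM in ablated libraries. The Tfe3 groups did not overlap, but the log2 fold change of 0.31 ± 0.16 missed the threshold (SE, adjusted p = 0.295 by edgeR). Transcript levels do not show where these factors sit in the cell, which is a main way in which TFEB and TFE3 are regulated.

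**Figure D4:**
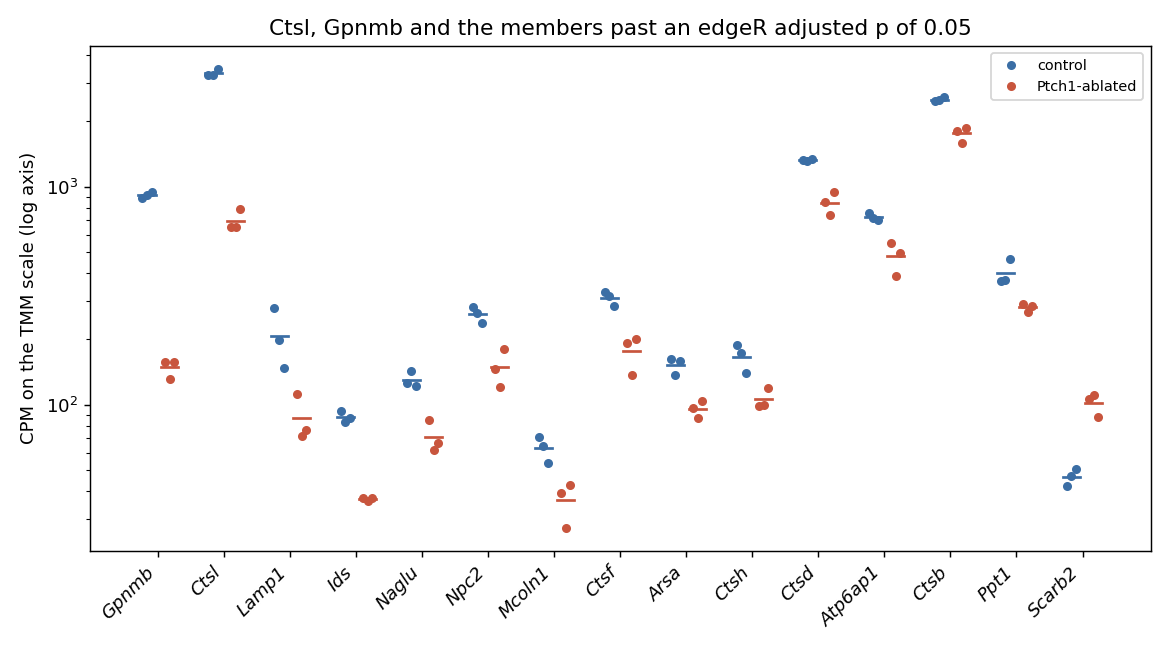
CPM on the TMM scale (log axis) of Ctsl, Gpnmb and the 13 members past an edgeR adjusted p of 0.05, with 1 point per library and a line at each group mean (n = 3 per group). Every gene shows separate groups, which the choice of these genes from the same comparison favours. Ctsl is at 3254 CPM or more in control and at 786 CPM or less in ablated libraries, and Scarb2 is the one gene that is higher in ablated libraries.

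Other lysosomal and autophagy genes that are not members were counted in 7 further lists, of which 138 genes were tested. Together 12 were lower and 1 higher at an adjusted p of 0.05, which is 9.42% in either direction. Over all genes tested 8.48% passed, 3.80% lower and 4.68% higher. The lists had a median log2 fold change of -0.19 and 101 of 138 genes below 0, beside 0.0046 and 49.6% over all genes tested. These lists were also chosen with earlier results of these data known, so nothing is read from the shares. The lower genes were 5 of 32 other enzymes and activators, 3 of 23 other membrane proteins, 2 of 16 other subunits of the vacuolar ATPase, 1 of 18 genes that sort enzymes to the lysosome and 1 of 26 autophagy genes. None of 19 genes of nutrient sensing and MiT control passed, and none of 4 cystatins, the inhibitors of cysteine cathepsins.

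Cd63, a tetraspanin of late endosomes and lysosomes, was the one gene of these lists past both an adjusted p of 0.05 and a fold of 2. It had 975, 1003 and 835 CPM in control and 365, 368 and 448 CPM in ablated libraries, a change of -1.25 ± 0.13 (SE) on the log2 scale with an adjusted p of 7.61e-05 by edgeR, the same size as that of Lamp1 and Ids. The next genes were named after their values were seen. Atp6v1e1, a stalk subunit of the proton pump, had 254, 308 and 296 CPM in control and 159, 126 and 167 CPM in ablated libraries (-0.93 ± 0.15, SE, adjusted p = 0.00232 by edgeR). Gnptg, a subunit of the enzyme that makes the mannose 6-phosphate tag, had 90.0, 108 and 98.8 CPM in control and 49.3, 55.0 and 62.8 CPM in ablated libraries (-0.83 ± 0.17, SE, adjusted p = 0.00986 by edgeR). Gabarap, which coats autophagosomes, had 258, 244 and 185 CPM in control and 140.3, 125 and 154 CPM in ablated libraries (-0.71 ± 0.16, SE, adjusted p = 0.0174 by edgeR). All 3 had separate groups, but the Gabarap call was lost in 5 and the Gnptg call in 2 of 15 alternative fits.

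Further lower genes, also named after their values were seen, were Acp2 (log2 fold change -0.61), Siae (-0.83), Pld3 (-0.45), Rnaset2b (-0.91), Slc29a3 (-0.82), Glmp (-0.55) and Atp6v0e2 (-0.61). Rnaset2b has a close copy in the mouse genome with which reads can be shared, so its value is uncertain. Laptm5, a lysosomal membrane protein of blood cells, was the one gene that rose, with 165, 220.2 and 190.1 CPM in control and 329, 329.7 and 268 CPM in ablated libraries (0.69 ± 0.15, SE, adjusted p = 0.0144 by edgeR). The Laptm5 call was lost in 3 of 15 alternative fits. Itgam (0.79 ± 0.20, SE, adjusted p = 0.0316 by edgeR) and Cd74 (0.54 ± 0.10, SE, adjusted p = 0.00626 by edgeR) were the 2 of 17 leukocyte markers that passed, both higher, while C1qc (-0.83) and Tyrobp (-0.79), which did not pass, had the lowest values of that list. The part of leukocytes in the Laptm5 value was not tested.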

How the data were processed

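RNA was sequenced from 3 control and 3 Ptch1-ablated samples of sorted keratocytes; the samples are separate libraries, called biological replicates in the study's methods, and where they share mice the p-values measure only the spread between libraries. The authors deposited RSEM expected counts, TPM and FPKM per gene and library, and group averages; the FPKM and averages deposited by the authors were not used. The submitters' processing notes list Bowtie2 2.2.5, RSEM 1.2.12 and build mm9; the annotation release and strand setting are not given in the sources used here. The labels name a TruSeq kit, whereas the study's methods name rRNA depletion and a BGISEQ instrument, and this was not resolved. Because of the build, positions of the counted genes are not given. GRCm38.p6 served only for promoter windows, for the coordinates of the stretches shown and for GENCODE starts.

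Expected counts, of which 18.6% were not whole, were rounded. Libraries were scaled by TMM, low genes dropped by filterByExpr (13888 of 17606 genes kept, 99.9% of counts) and groups compared by edgeR 4.0.16 (R 4.3.3, quasi-likelihood F-test, Benjamini-Hochberg adjustment over all genes tested, threshold 0.05). The script was tested on simulated data. Alternatives were DESeq2 1.42.0, limma 3.58.1 on log2(TPM + 1) and log2(TPM + 0.1), other scalings and filters, a replicate block and leaving out each library. Standard errors (SE) of log2 fold changes were back-calculated from edgeR's F statistic, as the absolute change divided by the square root of F. Correlations of log values were 0.893 to 0.957 within and 0.819 to 0.9 between groups. The members and lists were chosen with earlier results of these data known. Named genes were Ctsl and Gpnmb, every member past the threshold, the MiT factors, up to 3 most abundant others per role, and genes of the wider lists past the threshold and a fold of 2; others are marked as named after their values were seen. Promoter motifs were searched on both strands of RefSeq windows with Python 3.11.15. One gene of the wider lists is counted but not reported here by name.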

Additional observations from a re-analysis of the deposited data

How the results depend on the processing

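Of the 13 members that passed, 7 (Ctsf, Ctsd, Ids, Naglu, Npc2, Lamp1 and Scarb2) stayed past the threshold under all 15 alternatives, 6 were lost under at least 1, and 0 changed direction; of the other 34 members, 10 passed under at least 1 alternative. The count of lower members was 12. It was 7 with library totals only, 18 with upper quartile scaling, 6 in both limma fits on TPM and 20 with DESeq2. A mean count of at least 50 gave 15, no low-count filter 14, and leaving out 1 library 8 to 10. The count of higher members was 1, and 2 with library totals only or DESeq2, 3 in both limma fits and 1 to 2 with 1 library left out (2 without control 3). Lower members with a fold of 2 numbered 2, and 1 in limma on log2(TPM + 1); they numbered 1 to 3 with 1 library left out, with 1 without control 1 and 3 without ablated 1. In the wider lists 12 genes were lower. That count was 6 with library totals only, 17 with upper quartile scaling, 7 in both limma fits and 24 with DESeq2. A mean count of at least 50 gave 14, no low-count filter 13 and the replicate block 10. Leaving out 1 library gave 6 to 11 (7 without control 1 or control 2, 6 without ablated 2). The 1 higher gene became 2 with library totals only and limma on log2(TPM + 1). The count of higher genes was 0 to 2 with 1 library left out (0 without control 1, ablated 1 or ablated 2, 2 without control 3). The median of the 49 members was -0.41, and -0.46 with upper quartile scaling, -0.24 with library totals only, -0.20 in both limma fits and -0.49 to -0.36 with 1 library left out. The cause was not tested.

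Of the members that did not pass, 13 changed sign. With library totals only, log2 fold changes were 0.079 for Ctso, 0.051 for Ctsz, 0.074 for Gusb, 0.097 for Gla, 0.054 for Glb1, 0.045 for Man2b1, 0.066 for Npc1 and 0.13 for Tfeb. With limma on log2(TPM + 1) and then log2(TPM + 0.1), they were 0.11 and 0.11 for Ctso, 0.096 and 0.096 for Ctsz, 0.038 and 0.039 for Galns, 0.064 and 0.065 for Gusb, 0.16 and 0.17 for Gla, 0.22 and 0.24 for Glb1, 0.097 and 0.098 for Man2b1, 0.11 and 0.11 for Npc1, 0.033 and 0.033 for Lamp2, and 0.16 and 0.17 for Tfeb. Cln3 was at -0.027 with upper quartile scaling. Leaving out 1 library gave -0.063 to 0.18 for Ctsk, -0.32 to 0.23 for Gla, -0.47 to 0.19 for Glb1, -0.24 to 0.039 for Man2b1, -0.018 to 0.17 for Laptm4a, -0.11 to 0.24 for Cln3 and -0.28 to 0.17 for Tfeb.

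Whether the same replicate numbers pair the samples is not known. Deviations of same-numbered libraries correlated at -0.0461, -0.0489 and 0.0388, and those of differently numbered libraries at -0.0435 to 0.0656. With 3 libraries per group these values cannot settle the question. With the replicate number as a block, 663 genes against 763 were called at a fold of 2, Glb1 moved to 0.0091 and Cln3 to -0.012, and 11 members were lower. Precision rests on 3 libraries per group, and the standard errors of the members ran from 0.10 to 0.36 on the log2 scale.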
